A study of Mus musculus with 24 samples.

Results

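Fully converted mitochondrial DNA (mtDNA) of mouse embryonic stem cells (ESCs) was compared with synthetic mtDNA, cytosine by cytosine. The comparison uses 7 of the 24 libraries of the series, chosen by their labels alone. They are the 60 min libraries of ESC preparations 1, 2 and 3 (E1_60, E2_60 and E3_60) and of synthetic mtDNA (S1_60). The 40 min libraries of ESC preparations 1 and 2 (E1_40 and E2_40) and of synthetic mtDNA (S1_40) served as a check. ESC mtDNA came from purified, nuclease-treated mitochondria of the E14 line, grown in a 2i and LIF medium on STO mouse fibroblast feeders, so mtDNA of feeder cells may be present. The labels give no strain for these cells. Synthetic mtDNA, labelled with the strain C57BL/6J, was amplified by PCR from native mtDNA with standard nucleotides, as a linear molecule like the BglII-cut ESC mtDNA, and carries no 5-methylcytosine (5mC). Both kinds of DNA were heated with concentrated bisulfite at the same temperature for 40 or 60 min. Libraries were then made by post-bisulfite adaptor tagging (PBAT), in which adaptors are added by random priming after the treatment. There are 3 independent ESC preparations, but only 1 synthetic preparation.

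Bisulfite turns unmethylated cytosine into uracil, which is read as thymine, whereas 5mC is read as cytosine. A cytosine that the reagent did not reach is also read as cytosine. For fully unconverted L-strand reads the study names a further possibility, which arises while libraries are made. Copies of H-strand fragments without cytosine could be aligned to the L strand and counted as unconverted. Synthetic mtDNA shows how often cytosine is read without 5mC, whatever the cause, and the causes were not tested here. In nuclear DNA of mammals, DNA methyltransferases place 5mC mainly at CG, and in ESCs also at some non-CG sites. mtDNA is a small circle whose heavy (H) strand is rich in guanine and whose light (L) strand is rich in cytosine. It codes for subunits of respiratory complexes I, III, IV and V and for the rRNAs and tRNAs that translate them, and its control region holds promoters and the origin of H-strand replication.

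The unconversion rate of a site is the percent of covering reads in which its cytosine stayed unconverted. The files list 3890 L-strand and 1939 H-strand cytosines. Sites with coverage of at least 10 in each of the 4 libraries of 60 min were compared, which left 1946 L-strand and 1834 H-strand sites, so that every library was averaged over the same sites. CN means all cytosines, CG those followed by guanine, and CH the others, which are split into CHG and CHH (H is A, C or T). The sites used include 117 of 277 listed CG sites of the L strand. On the H strand, 266 CG sites were used. Libraries held between 783281 calls (E2_60) and 2260572 calls (E1_40). The median coverage of L-strand sites after 60 min was 47.5, 41, 53 and 154 reads in E1_60, E2_60, E3_60 and S1_60. H-strand medians were 228, 227, 265.5 and 677.5 reads. After 60 min, synthetic mtDNA was thus read more deeply than any ESC preparation, and after 40 min E1_40 was the deepest library. In what follows, 3 unconverted reads are the smallest number taken to show a rate, and at the median H-strand coverage they are 1.32% in E1_60 and 0.443% in S1_60. The L-strand values appear to include reads with at least 90% unconverted cytosines, which the study removed before calculating its own rates. Single reads are not analysed here, so this was not tested.

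Some of the CG sites named below are shown here, 5′ to 3′ on their own strand, with the CG in capitals. They come from a longer list drawn by a fixed rule from the values compared here. The rule took the CG sites with the highest ESC mean or the largest ESC minus synthetic difference. The other sites of that list are named below without their sequence. The windows are from the reference mtDNA of build GRCm38 (mm10), and H-strand windows are its reverse complement. The first 4 are L-strand sites and the last 4 are H-strand sites.
L13924 (ND6, chrM:13914-13934): aacctaaaaaCGatccaccaa
L4796 (ND2, chrM:4786-4806): cttttatactCGcctaattta
L4064 (ND2, chrM:4054-4074): aaaaaacccaCGatcaactga
L3907 (TrnM, chrM:3897-3917): aaatccttccCGtactaataa
H9366 (COX3, chrM:9356-9376): taaatggagaCGtataggaaa
H9601 (ND3, chrM:9591-9611): gaatggtagaCGtgcagagct
H1775 (mt-Rnr2, chrM:1765-1785): agttgttataCGcgtatgcct
H7257 (COX2, chrM:7247-7267): atatagaatgCGtagagaggg

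To ask whether ESC mtDNA kept more cytosines than DNA without 5mC, strand means were compared first. The mean H-strand unconversion rate of CN sites was 0.438%, 0.401% and 0.643% in E1_60, E2_60 and E3_60, and 0.467% in S1_60. The synthetic value lay between the ESC values. ESC mtDNA averaged 0.494% ± 0.130 (SD, n = 3), which is 0.027 points above synthetic mtDNA and less than the spread between ESC preparations. L-strand means were 31.4%, 32.6% and 32.5% in the ESC preparations and 31.9% in synthetic mtDNA. Here too the synthetic value lay within the ESC range, and the difference of 0.24 points was smaller than the SD of 0.67 points. The exact two-sided permutation test of which library is synthetic gave p = 1 on both strands. With 3 preparations against 1 it cannot give less than 0.25, so these differences are descriptions. Each preparation and its synthetic counterpart differed by -0.07 to 0.18 points (H strand) and by -0.53 to 0.68 points (L strand). These values are means over sites. With calls pooled over sites instead, all 3 ESC preparations lay above synthetic mtDNA on the L strand, as given below.

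CG sites, where 5mC would be sought first, were next compared with CH sites. H-strand CG sites had means of 0.477%, 0.345% and 0.670% in the ESC preparations and 0.391% in synthetic mtDNA. E1_60 and E3_60 lay above the synthetic library and E2_60 below it, and the mean difference of 0.107 points was smaller than the SD of 0.164. L-strand CG sites had means of 7.19%, 7.79% and 7.77% in the ESC preparations and 7.28% in synthetic mtDNA, with the synthetic value again inside the ESC range. CHG sites averaged 0.667% ± 0.136 (SD, n = 3) on the H strand against 0.657% in synthetic mtDNA, and CHH sites 0.443% ± 0.124 against 0.428%. L-strand CHG sites averaged 9.30% ± 0.37 against 8.98% and CHH sites 36.3% ± 0.72 against 36.1%. The order of the classes was therefore the same in ESC and synthetic mtDNA on the L strand, with CHH above CHG and CHG above CG. CG minus CH was also taken within each library. This difference was 0.05, -0.07 and 0.03 points in the ESC preparations and -0.09 points in the synthetic library on the H strand. All 3 ESC values lay above the synthetic one, by 0.093 points on average, and the exact permutation p was 0.25, the smallest possible. The L-strand values were -25.8, -26.4 and -26.3 points in the ESC preparations and -26.2 points in the synthetic library.

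**Figure D1:**
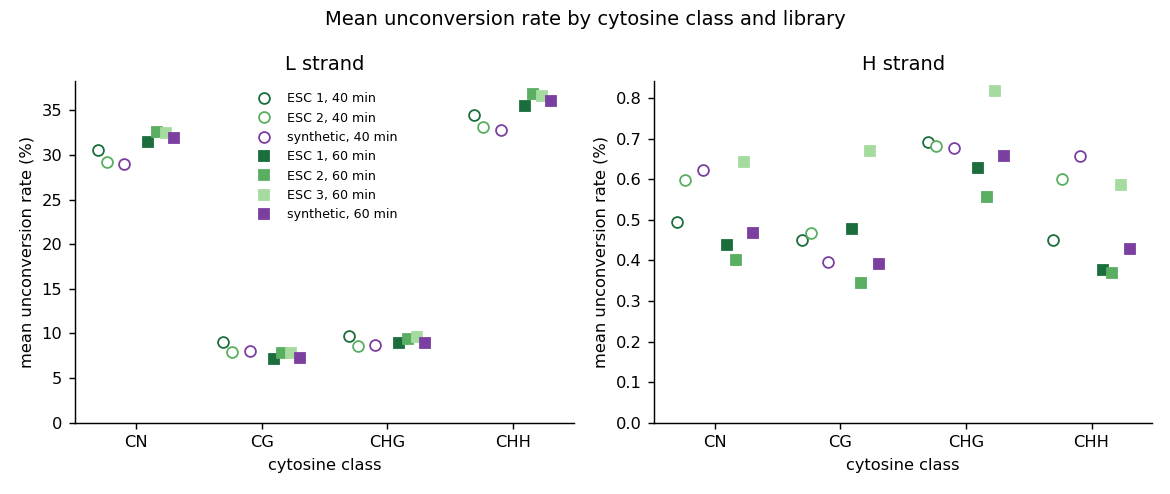
Mean unconversion rate (%, vertical axes, which differ between the strands) of CN, CG, CHG and CHH sites on either strand (L left, H right). Each symbol is 1 library, open after 40 min and filled after 60 min, green for ESC and purple for synthetic mtDNA. After 60 min the synthetic library lies within the range of the 3 ESC preparations in every class on both strands.

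The 40 min libraries allowed the same comparison over 2287 L-strand and 1875 H-strand sites. H-strand CG sites had means of 0.450% and 0.467% in E1_40 and E2_40, and 0.395% in S1_40, so both ESC libraries lay above the synthetic one. H-strand CHH sites went the other way, with 0.450% and 0.601% in the ESC libraries and 0.658% in S1_40. CG minus CH on the H strand was -0.05 and -0.15 points in the ESC libraries and -0.27 points in S1_40. The ESC libraries were thus again above the synthetic library in this difference, by 0.165 points, with an exact permutation p of 0.333, the smallest that 2 against 1 allows. They come from the same preparations as E1_60 and E2_60, so they are no new replicates. The mean H-strand CG rate of ESC mtDNA was 0.458% ± 0.012 (SD, n = 2) after 40 min and 0.497% ± 0.164 (SD, n = 3) after 60 min.

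The mtDNA was then divided into 17 regions, namely 2 rRNA genes, 13 protein genes, the 22 tRNA genes as a group and the control region. Genes of either coding strand were examined on both strands. On the L strand, rates between regions differed widely in both kinds of DNA. The rRNA genes, which code for the RNAs of the mitochondrial ribosome, had low mean rates over the 291 of 457 listed sites that were used. The mean of mt-Rnr1 was 3.83% ± 0.53 (SD, n = 3) in ESC and 3.88% in synthetic mtDNA, and that of mt-Rnr2 was 7.11% ± 0.51 against 6.95%. Among complex I genes, which code for subunits of NADH dehydrogenase, ND6 stood at 99.5% ± 0.17 against 99.6%, ND2 at 81.2% ± 2.7 against 80.3%, ND4 at 69.4% ± 1.9 against 70.0% and ND5 at 52.2% ± 0.55 against 51.9%. In ND6 (chrM:13552-14070), the L-strand cytosines used were thus nearly always read as unconverted in both kinds of DNA. CYTB, the only complex III subunit in mtDNA, stood at 36.5% ± 1.3 against 35.2%. Of the complex IV (cytochrome c oxidase) genes, COX1 stood at 2.59% ± 0.43 against 2.52%, COX3 at 3.79% ± 1.4 against 4.18% and COX2 at 21.6% ± 3.0 against 20.2%. The complex V (ATP synthase) gene ATP8 stood at 99.6% ± 0.50 against 99.3% and ATP6 at 51.2% ± 3.5 against 53.2%. Only 45 of the 221 listed L-strand sites of these 2 genes together were used. tRNA genes stood at 4.97% ± 1.2 against 4.38% and the control region at 8.30% ± 1.6 against 9.66%. In 14 of the 17 regions the L-strand difference was no larger than 1 SD of the ESC preparations.

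All 3 ESC preparations lay above synthetic mtDNA in 3 of 17 L-strand regions (17.6%), ND1, ND3 and CYTB, and below it in none (0%). In ND1 (chrM:2751-3707) the ESC values were 28.1%, 27.1% and 28.1% and the synthetic value was 24.0%, over 74 of the 249 listed sites. The 40 min libraries gave 26.0% and 25.9% against 21.1%, so the ND1 groups did not overlap at either duration. With a coverage minimum of 30 the ND1 difference after 60 min fell from 3.79 to 1.16 points, and over sites with rates under 5% in S1_40 it was 0.14 points. The sites under 5% were chosen for low rates and leave out those of higher rate. Their difference is therefore not comparable with that over all ND1 sites. In ND3 the values were 53.8%, 44.8% and 43.2% against 37.4%, but only 11 of 77 sites were covered. The ND3 values after 40 min were 18.8% and 14.5% against 12.6%, over 31 sites. In CYTB the values were 35.2%, 37.9% and 36.5% against 35.2%, and the lowest preparation lay only 0.04 points above synthetic mtDNA. After 40 min all ESC libraries were above synthetic in 7 of 17 L-strand regions (41.2%) and below it in 3 (17.6%). The exact permutation p was 0.25 for ND1, the smallest possible, and 0.5 for ND3 and CYTB. In the control region the direction turned with duration, with 19.9% and 13.8% in ESC against 11.7% in synthetic mtDNA after 40 min.

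**Figure D2:**
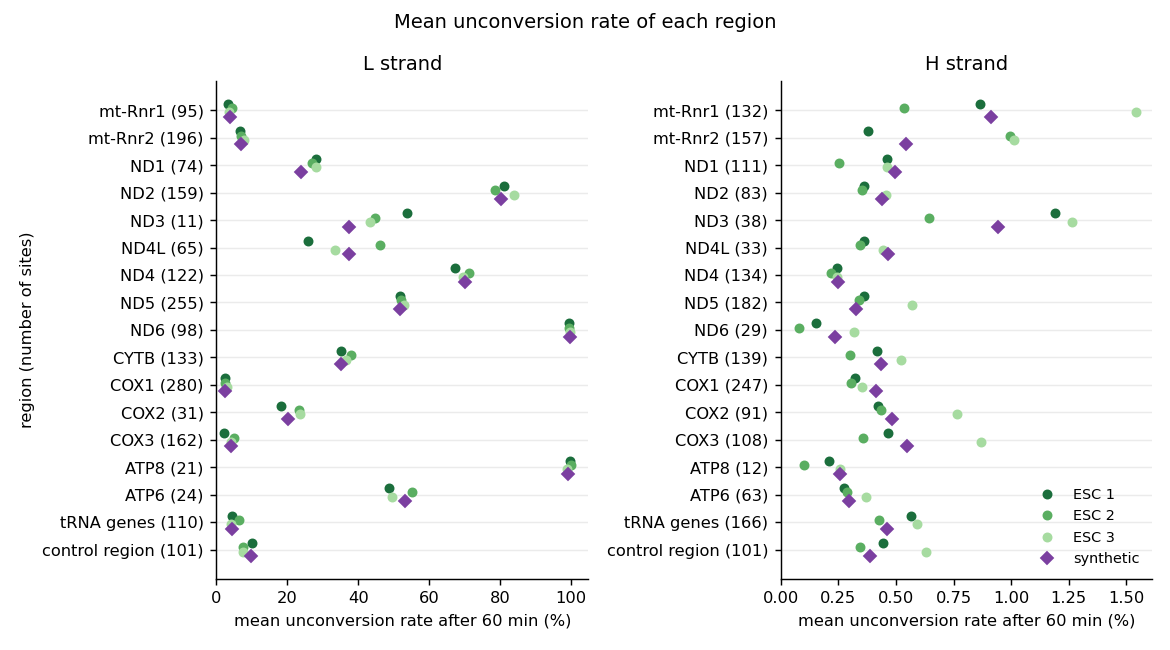
Mean unconversion rate after 60 min (%, horizontal axes, which differ between the strands) of each region, L strand left and H strand right, with the number of sites used in brackets. Circles are the 3 ESC preparations and diamonds the synthetic library. L-strand rates run from about 2.5% in COX1 to over 99% in ND6 in both kinds of DNA, and H-strand rates stay below 1.6% in every region and library.

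On the H strand, no region of any 60 min library exceeded the 1.54% of mt-Rnr1 in E3_60. In mt-Rnr1 (chrM:70-1024) the ESC values were 0.87%, 0.54% and 1.54% and the synthetic value was 0.91%. In mt-Rnr2 they were 0.38%, 0.99% and 1.01% against 0.54%. In both rRNA genes the SD of the ESC preparations, 0.51 and 0.36 points, was larger than the ESC minus synthetic difference of 0.07 and 0.25 points. After 40 min mt-Rnr1 had 0.49% and 1.85% in ESC and 2.69% in synthetic mtDNA, so its rate varied between libraries of both kinds. ND3 had the highest ESC mean, 1.03% ± 0.34 (SD, n = 3), from 1.19%, 0.64% and 1.27%, against 0.94% in synthetic mtDNA. All other H-strand regions had ESC means between 0.18% (ND6) and 0.56% (COX3). ESC preparations were all above synthetic mtDNA in 1 of 17 regions (5.88%), ND5, with 0.36%, 0.34% and 0.57% against 0.33%. They were all below it in 4 (23.5%), which were ND1, ND4L, ND4 and COX1. In COX1 the values were 0.32%, 0.30% and 0.35% against 0.41%, a difference of -0.09 points. After 40 min, regions with all ESC libraries above numbered 5 (29.4%) and those with all below 3 (17.6%). This order was turned after 40 min in COX1, with 0.63% and 0.58% in ESC against 0.47% in synthetic mtDNA, and likewise in ND4L. E3_60 was the highest of the 4 libraries in 13 of 17 H-strand regions and E2_60 the lowest in 13. Without E3_60, the remaining ESC preparations were below synthetic mtDNA in 12 regions instead of 4, and the mean CN difference turned from 0.027 to -0.047 points. In the control region, which holds the promoters, H-strand values were 0.44%, 0.35% and 0.63% against 0.39%, so synthetic mtDNA lay within the ESC range.

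Single sites were then tested to see whether a small number of cytosines carried a difference that the means hide. The test compared unconverted and converted reads and allowed for the spread between ESC preparations (edgeR's quasi-likelihood test with Benjamini-Hochberg adjustment over 3780 sites). It called 0 sites at an adjusted p under 0.05, neither higher (0%) nor lower (0%) in ESC. The adjusted p was the same at every site, so it sets no named site apart from the others. Synthetic mtDNA has 1 library, so the lack of calls does not exclude differences at single sites. Even 3 neighbouring mt-Rnr1 sites, with means of 20.1% in ESC and 63.2% in synthetic mtDNA, were not called. Of the 3780 sites, 3315 had an unconverted read in at least 1 library, and the others could not be called. At an unadjusted p under 0.05 there were 74 sites (1.96%), 42 higher and 32 lower in ESC, which is fewer than 5 in 100. Of the 383 CG sites of both strands, 1 L-strand and 3 H-strand sites had such a p. limma on the empirical logit of the rates also called 0 sites, but 439 (11.6%) had an unadjusted p under 0.05, which is more than 5 in 100. Of these, 232 were higher and 46 lower in ESC, and the rest had no difference in mean rate. At a site without unconverted reads, the offset of 0.5 makes this logit depend on depth, and the part of depth was not tested. After 40 min, edgeR called 0 of 4162 sites, with 22 (0.529%) at an unadjusted p under 0.05. All 3 ESC preparations lay above synthetic mtDNA at 248 L-strand sites (12.7%) and below it at 337 (17.3%). They lay above it at 109 H-strand sites (5.94%) and below it at 393 (21.4%). Of the H-strand sites, 21.1% were at 0% in the more deeply read S1_60 and 35.7 to 54.4% in the ESC preparations, and the part of depth in these counts was not tested.

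**Figure D3:**
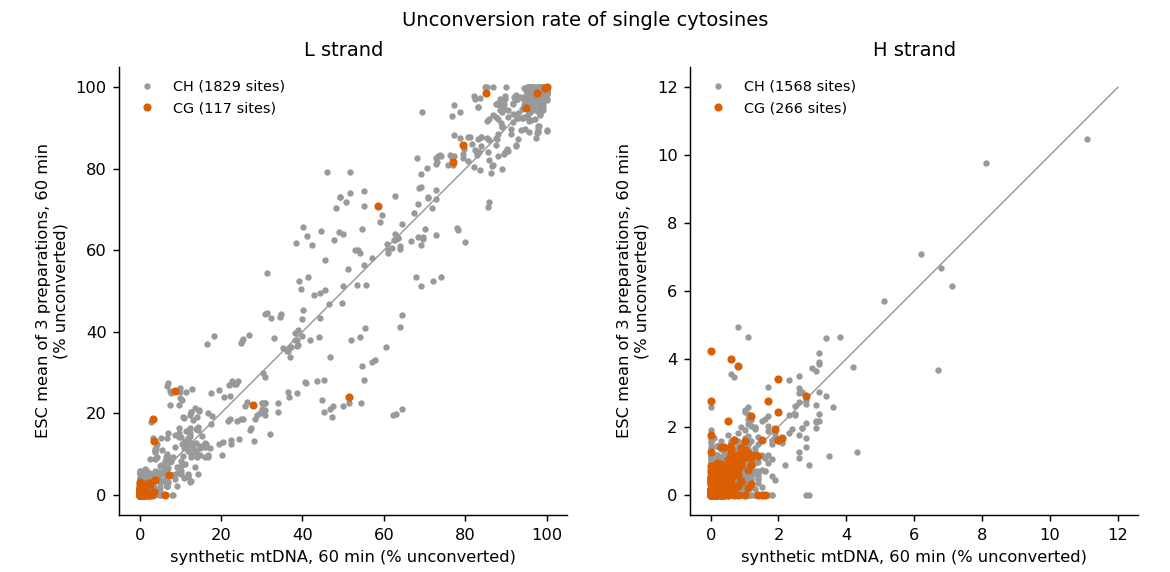
Unconversion rate (%) of each cytosine in synthetic mtDNA (horizontal axis) and as the mean of 3 ESC preparations (vertical axis) after 60 min, for the L strand (left) and H strand (right, on a smaller scale). Orange points are CG sites, grey points CH sites, and the line marks equal rates. Points follow the line over the whole L-strand range, and all 266 H-strand CG sites lie under 5% on both axes.

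Libraries were also compared with each other site by site. After 60 min the mean absolute L-strand difference between ESC preparations was 2.88 to 3.91 points, and between an ESC preparation and synthetic mtDNA 3.05 to 3.11 points. Medians were 0.6 to 0.8 points and 0.8 to 0.9 points. The same difference on the H strand was 0.465 to 0.605 points between ESC preparations, and 0.400 to 0.514 points between an ESC preparation and synthetic mtDNA. After 40 min it was 0.577 points between the ESC libraries, and 0.6002 and 0.6139 points between these and S1_40. There, 3 and 9 H-strand sites differed by over 20 points between an ESC library and S1_40, and 0 between the ESC libraries. As a description over the same 1946 L-strand sites, Pearson's r was 0.981 to 0.990 between ESC preparations and 0.987 to 0.989 between these and synthetic mtDNA. Over the 1834 H-strand sites it was 0.337 to 0.485 and 0.559 to 0.606, and rates of a library share its depth, which was highest in S1_60.

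CG sites were examined one by one. On the L strand, 104 of 117 CG sites had an ESC mean under 5%, and 8 had a mean of 50% or more. In synthetic mtDNA, 9 CG sites reached 50%. L13924 in ND6 was at 100% in all 3 ESC preparations and in synthetic mtDNA, on 178 to 844 reads. L4796 in ND2 was at 100%, 100% and 99.5% in ESC and 99.5% in synthetic mtDNA. Both sites were thus read as unconverted in DNA that carries no 5mC. L4064 in ND2 was at 100%, 100% and 96.0% in ESC and 85.0% in synthetic mtDNA, on 28 to 50 reads. Its unadjusted p was 0.036 and its adjusted p was 1 by edgeR, and after 40 min it was at 94.7% and 92.0% against 91.3%. L14954 in CYTB was at 96.7%, 100% and 98.8% against 97.6%, and L4353 in ND2 at 95.9%, 91.5% and 97.4% against 94.9%. These are the 5 sites with the highest ESC means, and edgeR, which called no site at all, called none of them.

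The largest ESC minus synthetic difference of an L-strand CG site was 16.8 points, at L3907 in TrnM, the gene of methionine tRNA. Its values were 17.2%, 40% and 19.0% in ESC and 8.6% in synthetic mtDNA (unadjusted p = 0.067, adjusted p = 1 by edgeR). After 40 min it was at 7.3% and 31.7% in ESC, on 41 reads each, and 3.4% in synthetic mtDNA, on 29 reads. ESC was thus above synthetic at both durations and preparation 2 was highest at both. The synthetic rate after 40 min rests on fewer than the 3 unconverted reads taken to show a rate. L9943 in ND4L followed with 5.9%, 30% and 20% against 3.2%, on only 10 to 31 reads. Its unconverted reads were 1, 3 and 3 in ESC and 1 in synthetic mtDNA. L12087 in ND5 stood at 70.0%, 80.0% and 62.5% against 58.6%, and L5613 in COX1 at 7.1%, 15.4% and 16.7% against 3.6%, both on at least 10 reads. L5613 had only 1, 2 and 2 unconverted reads in ESC and 1 in synthetic mtDNA, too few to show a rate. After 40 min none of L9943, L12087 and L5613 had both ESC libraries above synthetic mtDNA. L9943 was at 0% in all libraries, L12087 at 63.0% and 46.2% against 59.1% and L5613 at 6.7% and 0% against 12.5%, with only 8 reads in some libraries of L9943 and L5613. None of these sites was called by edgeR, which called no site at all. Over all L-strand CG sites, 45 were higher in ESC, 36 lower and 36 equal.

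On the H strand, no CG site had an ESC mean of 5% or more, and the highest synthetic rate was 2.8%. H9366 in COX3 had the highest ESC mean, 4.23%, from 9.1%, 0% and 3.6%, which were 2, 0 and 1 unconverted reads. It was at 0% in synthetic mtDNA, where 0 of 97 reads allows a rate of up to 3.09%. After 40 min it had 1.5% and 3.0% in ESC, on 130 and 33 reads, and 0% in synthetic mtDNA, on 29 reads. Both ESC libraries were then above synthetic mtDNA, whereas after 60 min E2_60 was at 0% like S1_60. At either duration each rate rests on fewer than the 3 unconverted reads taken to show a rate. H9601 in ND3 had 4.5%, 5.9% and 1.6% against 0.6%, on 44 to 168 reads (unadjusted p = 0.097 by edgeR, adjusted p = 1). Its 60 min rates were 2, 3 and 1 unconverted reads in ESC and 1 in synthetic mtDNA, so only E2_60 reached the 3 reads taken to show a rate. After 40 min H9601 had 2.1% and 0% in ESC and 0% in synthetic mtDNA. H1775 in mt-Rnr2 had 1.0%, 2.8% and 7.6% against 0.8%, and after 40 min 0.4%, 0.4% and 0.6%. H264 in mt-Rnr1 had 3.8%, 2.0% and 4.4% against 2.0%. H7257 in COX2, on the deepest coverage of these sites (391 to 1484 reads), had 2.2%, 2.0% and 4.5% against 2.8%, so it stood out in synthetic mtDNA as well. H1377 and H2489 in mt-Rnr2 each rested on 1 unconverted ESC read. Over all H-strand CG sites, 136 were higher in ESC, 101 lower and 29 equal.

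Fisher's exact test takes no account of the spread between preparations, and it gave another count of sites. On reads summed over ESC preparations it called 18 sites higher (0.476%) and 30 lower (0.794%) in ESC after 60 min. With reads of a single ESC preparation it called 40 (1.06%), 17 (0.45%) and 26 sites (0.688%) with E1_60, E2_60 and E3_60, so such calls also arose without summing. None of the 48 sites called on summed reads was a CG site. 47 were CHH sites and 1 was a CHG site, and 47 lay on the L strand. Of all 1946 L-strand sites tested, 1656 were CHH, 173 CHG and 117 CG sites. CG sites were thus few among the sites tested, and their absence from the calls is not read as a result about CG. Grouped where neighbours called in the same direction were at most 25 nt apart, they formed 11 runs, 6 higher and 5 lower. The 2 runs in ND2 (chrM:3914-4951) are shown with the called cytosines in capitals, because they go in opposite directions within 1 gene.
ND2, higher in ESC (L strand, chrM:4026-4072): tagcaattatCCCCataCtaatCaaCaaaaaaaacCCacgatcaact
ND2, lower in ESC (L strand, chrM:4820-4882): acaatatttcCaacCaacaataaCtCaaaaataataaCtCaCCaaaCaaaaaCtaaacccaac
The 9 cytosines of the first had means of 99.9%, 99.9% and 99.8% in ESC and 96.1% in synthetic mtDNA. After 40 min they had 99.4% and 98.8% in ESC and 98.9% in S1_40, so the groups overlapped. The 10 of the second had means of 91.5%, 88.2% and 93.6% in ESC and 98.0% in synthetic mtDNA. After 40 min they had 94.3% and 90.4% against 96.4%, which keeps ESC below synthetic. Neighbouring cytosines share reads, so a run is nearer to 1 observation than to several.

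Of the other 9 runs, that in ND4L overlapped between ESC and synthetic mtDNA after 60 min, and several did not keep their side after 40 min. The 12 sites in ND4L were at 12.5%, 34.3% and 19.5% in ESC and 32.8% in synthetic mtDNA, so E2_60 lay above the synthetic library. After 40 min they were at 18.5% and 18.6% in ESC against 25.1%, so both ESC libraries were below synthetic mtDNA. The 3 sites in ND4 were at 2.7%, 17.9% and 12.3% against 24.9%, and after 40 min they were at 10.7% and 7.8% against 6.2%. The 3 sites in mt-Rnr1 had the largest gap, with 22.4%, 20% and 17.9% against 63.2%, on 10 to 59 reads. After 40 min they were at 83.0%, 41.7% and 66.2% in E1_40, E2_40 and S1_40, so the synthetic library lay between the ESC libraries. The 2 sites in the control region were at 3.8%, 1.5% and 4.3% against 12.5%. After 40 min they were at 33.8% in E1_40 and 3.95% in E2_40 against 10.6%, so the synthetic library lay between the ESC libraries. The 2 sites in CYTB were at 100% in every ESC preparation and 84.9% in synthetic mtDNA, and after 40 min at 95.9% and 100% against 86.9%. The 2 sites in ND1 were at 66.8%, 75.5% and 95.5% against 48.8%, and after 40 min at 74.1% and 62.7% against 50%. The 2 sites in TrnM, beside L3907, were at 20%, 42.2% and 18.8% against 6.8%, and after 40 min at 8.9% and 32.5% against 3.7%. The 2 sites in mt-Rnr2 were at 9.5%, 9.5% and 8.5% against 2.9%, and after 40 min they were lower in ESC, at 3.1% and 3.6% against 7.1%. The single H-strand call, in ND5, had 0.3%, 0.6% and 1.0% against 0%, and after 40 min 0.5% and 0.6% against 0.5%. All 48 sites were covered after 40 min, and Fisher's test of the 40 min libraries called 0 of them. In those libraries it called 11 other sites, 6 higher (0.144%) and 5 lower (0.12%) in ESC.

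**Figure D4:**
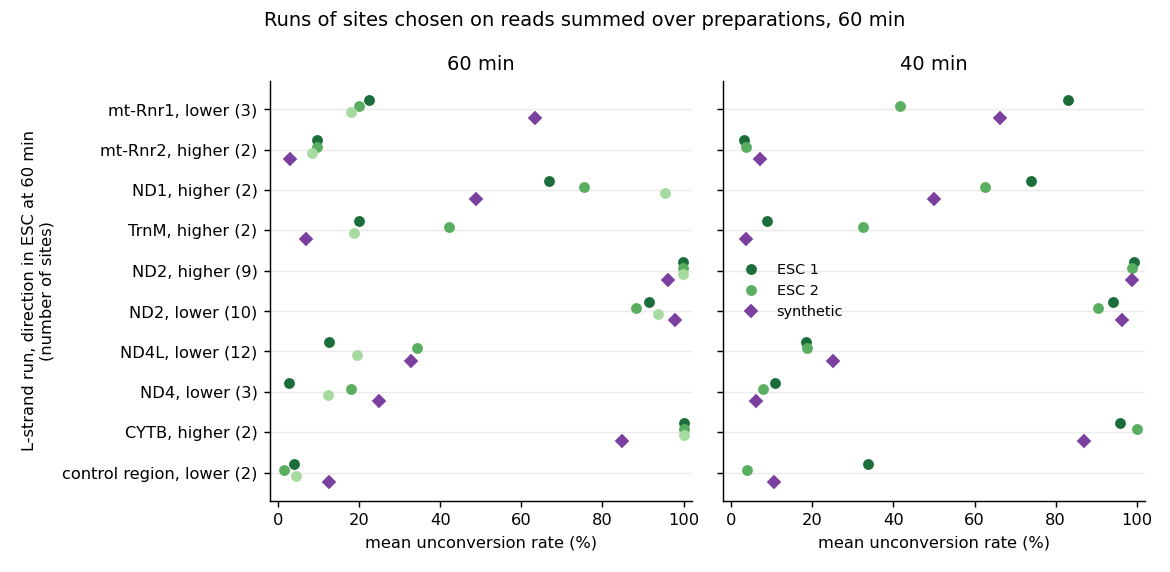
Mean unconversion rate (%, horizontal axis) of the 10 L-strand runs that Fisher's test on summed reads called after 60 min, after 60 min (left) and 40 min (right), with the direction in ESC after 60 min and the number of sites. Circles are ESC preparations and diamonds the synthetic library. The runs were chosen on the left-hand values, and on the right ESC and synthetic values overlap in mt-Rnr1, ND2 (higher) and the control region and change sides in mt-Rnr2 and ND4.

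L-strand sites were also divided by their rate in S1_40, a library outside the 60 min comparison. Of 1933 sites covered there, 1111 had a rate under 5% in S1_40, 226 a rate of 5 to under 50%, 155 a rate of 50 to under 90% and 441 a rate of 90% or more. Sites under 5% had ESC means of 0.81%, 1.31% and 1.43% after 60 min and 0.92% in S1_60. Sites of 5 to under 50% had 20.8%, 26.0% and 22.6% in ESC and 24.5% in S1_60, and sites of 50 to under 90% had 75.5%, 79.5% and 81.6% against 76.3%. Sites of 90% or more had 97.8%, 98.1% and 98.2% against 97.9%. On average, sites read as unconverted in S1_40 were thus read as unconverted in ESC mtDNA and in S1_60 alike. The sequence around the sites differed with these rates. In a window of 51 nt of the L strand centred on the cytosine, the median number of guanines was 8 for sites under 5%, 3 for both middle groups and 2 for sites of 90% or more. CG sites fell mostly into the first group, with 105 of 115, and their ESC means there were 0.55%, 1.24% and 1.02% against 0.74% in S1_60.

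Finally, an upper bound on 5mC in ESC mtDNA was set by counting every unconverted read as if it were 5mC. The bound is the upper end of the exact (Clopper-Pearson) 95% interval of the calls pooled over sites, for the highest of the 3 preparations. It covers counting error only, and calls of the same read are not independent. Synthetic values beside it are the upper end for 1 library, not the highest of 3, so the 2 are not alike. For H-strand CG sites the upper ends were 0.398%, 0.330% and 0.522% in E1_60, E2_60 and E3_60, so the bound was 0.522%. The upper end in synthetic mtDNA was 0.419%, above those of E1_60 and E2_60. For H-strand CN sites the upper ends were 0.380%, 0.328% and 0.486% against 0.447%. Among H-strand genes, the bound was highest in mt-Rnr1, at 2.34% against 1.22%, and lowest in ND4, at 0.33% against 0.30%. For complex IV genes together it was 0.50% and for tRNA genes 0.57%. On the L strand, bounds over all sites say little, since they were 10.2% for CG and 38.1% for CN in ESC and 6.58% and 34.5% in synthetic mtDNA. Over L-strand sites under 5% in S1_40 the bound was 1.01% for CN, against 0.717% in synthetic mtDNA, and 0.883% for the 105 CG sites, against 0.514%. Pooled calls weight sites by coverage, and on the L strand ESC mtDNA then lay 2.38 points above synthetic mtDNA for CN and 1.51 points above it for CG, whereas means over sites differed by 0.24 and 0.30 points. The pooled L-strand CN rates were 37.0%, 35.4% and 37.8% in ESC and 34.3% in synthetic mtDNA, so all 3 preparations lay above it. The same held for CG, at 7.17%, 6.64% and 9.69% against 6.32%, and for CHG and CHH. After 40 min both ESC libraries lay below synthetic mtDNA in pooled L-strand CN, at 35.5% and 33.2% against 36.6%.

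For single sites, reads were summed over the 3 ESC preparations, which gave a median of 733.5 reads per H-strand site and 143 per L-strand site. Where no read was unconverted, the bound was 3 reads of the coverage. On the H strand the median bound of a CG site was 1.09%, and 118 of 266 CG sites (44.4%) were bounded under 1%, 203 (76.3%) under 2% and 254 (95.5%) under 5%. CH sites of the H strand had a median bound of 1.10%, with 46.3% under 1% and 94.7% under 5%. No H-strand site of either class had a bound above 13.3%. On the L strand the median bound was 3.53% for CG sites and 8.57% for CH sites, and 73 of 117 CG sites (62.4%) were bounded under 5%. In synthetic mtDNA, which has no 5mC, the same calculation bounded 261 H-strand and 75 L-strand CG sites under 5%. There were 46 H-strand and 53 L-strand CG sites with no unconverted ESC read, where the coverage allows a median rate of up to 0.992% and 3.53%. On L-strand sites of high unconversion no level of 5mC could be read.

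**Figure D5:**
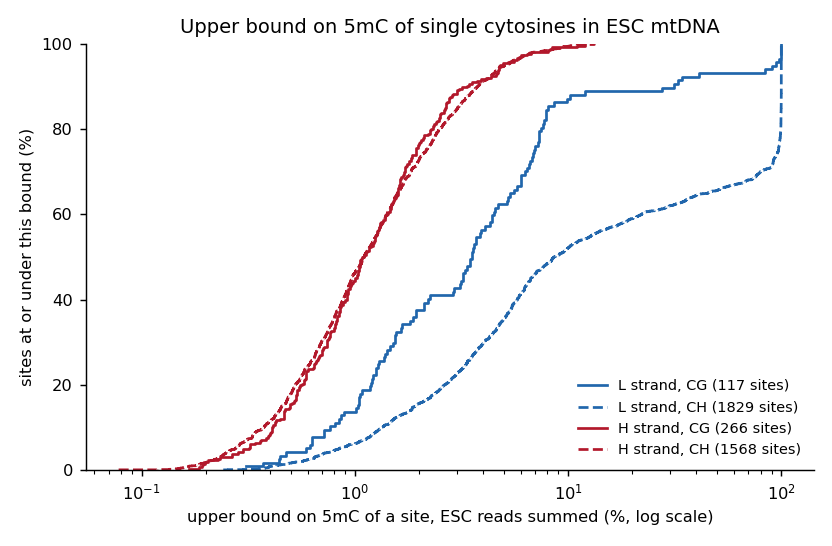
Share of sites (%, vertical axis) whose upper bound on 5mC in ESC mtDNA is at or under the value on the horizontal axis (%, log scale), with reads summed over 3 preparations after 60 min. Solid lines are CG sites, dashed lines CH sites, red the H strand and blue the L strand. The H-strand lines for CG and CH run together with medians of 1.09% and 1.10%, whereas the L-strand lines have medians of 3.53% and 8.57%.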

How the data were processed

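Per the labels and the study's methods, the authors sequenced PBAT libraries on a MiSeq, trimmed first reads with Trim Galore and aligned these by Bismark, in its PBAT mode, to the mitochondrial sequence of mm10. Tool versions are not given in the sources used here. For each cytosine, the deposited values are the percent of reads left unconverted, to 1 decimal and uncorrected, and the coverage, a raw count of reads. Unconverted reads were taken as percent times coverage, rounded. Of the 5829 listed cytosines, sites with coverage of at least 10 in all libraries compared were used. Another 160 cytosines of the reference, and spiked λDNA, are not analysed here. Cytosine class and gene were read from the RefSeq reference of the same build (GRCm38.p6), and cytosines in overlapping genes were counted once.

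Site tests used edgeR 4.0.16 in R 4.3.3, with a term for each library and the interaction of read state and group, fitted per strand and adjusted over both. The single synthetic library was assumed to vary like the ESC preparations. Fisher's exact test and limma 3.58.1 (offset 0.5) were alternatives. Intervals and permutation tests used scipy, and groups came from the labels. Coverage was identical in 0 of 21 library pairs. Other alternatives were coverage minimums of 20 and 30, pooled calls, sites covered in all 7 libraries, the 40 min libraries, leaving out each ESC preparation, sites more than 50 nt from the BglII cut, and L-strand sites under 5% in S1_40.

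Named sites were to be those called by edgeR, of which there were none, and on each strand the 5 CG sites with the highest ESC mean and the 5 with the largest ESC minus synthetic difference. Runs called by Fisher's test were named after their values were seen. The comparison and lists were chosen with earlier results of these data known.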

Additional observations from a re-analysis of the deposited data

Results flagged for a closer look

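2 H-strand regions, ND4L and COX1, differed in direction between the durations, in that every ESC library lay on one side of synthetic mtDNA after 60 min and on the other after 40 min. In ND4L, ESC minus synthetic was -0.0848 points after 60 min and 0.286 points after 40 min. In COX1 it was -0.0887 points after 60 min and 0.132 points after 40 min. The difference between durations was not tested, and each duration has 1 synthetic library. 17 regions and 5 cytosine classes per strand were looked at in this way.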

How the results depend on the processing

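No paired analysis was possible because ESC and synthetic mtDNA share only 1 replicate number and synthetic mtDNA has 1 library per duration. limma, run in the main setting alone, called no site. No alternative made edgeR call a site, whether unconverted reads were rounded down or up, coverage was at least 20 or 30, only sites with an unconverted read were tested, the 40 min libraries were used or an ESC preparation was left out (0 to 0 sites in each direction). Fisher's test on summed reads called 18 sites higher and 30 lower after 60 min, and, added after seeing the data, 6 higher and 5 lower after 40 min. Pooling calls moved the L-strand ESC minus synthetic difference to 2.38 points for CN, 1.51 for CG, 2.29 for CH, 1.01 for CHG and 2.34 for CHH, and that of CG minus CH to -0.78. With a coverage minimum of 30 the L-strand CHG difference was -0.14 points. In the 40 min libraries the L-strand differences were 0.91 points for CN, 0.95 for CH, 1.004 for CHH and -0.49 for CG minus CH, and the H-strand differences were -0.13 for CHH and 0.16 for CG minus CH. Leaving out 1 ESC preparation gave CN differences of -0.05 to 0.07 points on the H strand and 0.02 to 0.62 on the L strand. It gave CG differences of 0.02 to 0.18 and 0.20 to 0.50 points.

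Counts of regions with all ESC preparations on one side also moved. On the L strand, those above numbered 3, and 6 with a coverage minimum of 20, 1 with 30, 7 after 40 min and 4 to 6 without 1 preparation. Those below numbered 0, and 1 with a minimum of 20, 3 with 30, 5 with pooled calls, 3 after 40 min, 3 for sites under 5% in S1_40 and 1 to 4 without 1 preparation. On the H strand, those above numbered 1, and 2 with a minimum of 30, 5 after 40 min and 1 to 4 without 1 preparation, and those below 4, and 4 to 12 without 1 preparation. The upper bounds for the L strand fell to 1.01% for CN and 0.883% for CG over sites under 5% in S1_40. The causes were not tested, except that these sites were chosen for low rates. Of the values for single regions, 32 moved by more than 1 SD of the ESC preparations and 287 did not. Depth limits the L strand most, where 3 reads at the median coverage are 5.66 to 7.32% in the ESC libraries of 60 min and 1.95% in S1_60.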
